A study of Mus musculus with 12 samples.

Results

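The 10 integrin genes described here encode adhesion receptor subunits that myeloid cells use, some of them shared with many other cell types. They are the alpha subunits *Itgam*, *Itgax*, *Itgal*, *Itga4*, *Itga5* and *Itgav* and the beta subunits *Itgb2*, *Itgb1*, *Itgb5* and *Itgb7*. They were chosen by symbol, each matched 1 row of the table of counts, and they are 10 of the 54532 genes in it. All 10 passed the filter on low counts, and they were tested together with the other genes, 14894 in all. RNA-seq was done on bone marrow cells from C57BL/6 mice of the genotype WT (wild type) that had been kept for 5 days in medium with GM-CSF and IL-6, cytokines that drive the growth and differentiation of myeloid cells. The 12 libraries fall into 3 groups of 4, with vehicle (0.1% DMSO), with 10 µM indole-3-propionic acid (IPA), a product of bacterial tryptophan metabolism, and with 50 µM IPA. GM-CSF and IL-6 were present in all 3 groups. The labels give no age for the mice and do not say whether the libraries of a group came from separate animals or cultures, so the p-values measure the spread between these libraries, which may be technical.

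An integrin is a pair of 1 alpha and 1 beta chain that spans the plasma membrane and binds other cells or the extracellular matrix. The beta 2 chain, made from *Itgb2*, pairs with alpha L in LFA-1, with alpha M in Mac-1 and with alpha X in CD11c/CD18, and these receptors serve leukocyte arrest on endothelium, phagocytosis and complement binding. The beta 1 chain pairs with alpha 4 in VLA-4, which binds VCAM-1 and fibronectin, and with alpha 5 in the classical fibronectin receptor. Alpha 4 also pairs with beta 7 in the receptor for the gut addressin MAdCAM-1, and alpha V pairs with beta 5 in a receptor for vitronectin. A chain reaches the surface only in its pair, and the transcript of 1 chain is therefore not a measure of receptor.

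The promoters of 4 members are shown, in 2 pairs. *Itgam* and *Itgax* lie next to each other on chromosome 7, in the same orientation, while *Itga4* and *Itgb7* encode the chains of 1 receptor and both were lower at 50 µM than at 10 µM. The sequences are those of RefSeq on GRCm38.p6. The set of promoters used here had entries for the 8 members other than *Itgb2* and *Itgal*. Each sequence runs 5′ to 3′ on the gene's strand from 250 bases before the start of the gene to 50 after it. Capitals mark GAGGAA, a purine-rich core bound by ETS factors such as PU.1, and GGGCGG, the core of the GC box bound by Sp1, on either strand (TTCCTC and CCGCCC on the opposite strand).
Itgam, chr7:128062390-128062689, plus strand: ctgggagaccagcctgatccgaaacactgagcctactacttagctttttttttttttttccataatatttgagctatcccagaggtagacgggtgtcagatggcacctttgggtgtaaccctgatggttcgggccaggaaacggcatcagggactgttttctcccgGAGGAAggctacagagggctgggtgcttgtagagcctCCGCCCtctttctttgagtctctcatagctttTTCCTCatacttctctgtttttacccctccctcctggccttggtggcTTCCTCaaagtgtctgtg
Itgax, chr7:128129300-128129599, plus strand: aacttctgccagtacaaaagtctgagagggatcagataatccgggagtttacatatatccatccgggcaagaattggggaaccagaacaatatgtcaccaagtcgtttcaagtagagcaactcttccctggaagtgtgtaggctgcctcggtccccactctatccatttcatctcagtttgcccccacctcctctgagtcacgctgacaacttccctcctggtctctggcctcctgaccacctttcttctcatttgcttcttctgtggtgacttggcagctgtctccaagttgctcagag
Itga4, chr2:79255176-79255475, plus strand: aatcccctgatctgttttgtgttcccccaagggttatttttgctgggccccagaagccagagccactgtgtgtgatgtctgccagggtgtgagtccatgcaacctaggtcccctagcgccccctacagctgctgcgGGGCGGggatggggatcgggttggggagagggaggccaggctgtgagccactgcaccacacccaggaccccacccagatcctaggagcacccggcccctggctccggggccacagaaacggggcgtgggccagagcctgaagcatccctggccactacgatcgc
Itgb7, chr15:102231886-102232185, minus strand: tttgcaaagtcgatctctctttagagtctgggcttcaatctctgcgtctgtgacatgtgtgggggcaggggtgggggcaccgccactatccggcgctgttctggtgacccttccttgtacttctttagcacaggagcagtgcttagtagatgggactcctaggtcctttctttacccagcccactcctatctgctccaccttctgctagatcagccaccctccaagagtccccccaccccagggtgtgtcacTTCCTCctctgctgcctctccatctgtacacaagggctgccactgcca
The *Itgam* window held 3 matches to GAGGAA, at -84 to -79, at -15 to -10 and at 32 to 37 with the first base of the gene counted as 0, and 1 match to GGGCGG at -47 to -42. The *Itgax* window held neither. *Itga4* had 1 GGGCGG at -114 to -109 and no GAGGAA, and *Itgb7* had 1 GAGGAA at 2 to 7 and no GGGCGG. Among the 8 members with a sequence, 5 had GAGGAA and 6 had GGGCGG. Of 32544 promoters of the same length, 28.1% held GAGGAA and 35.9% held GGGCGG. Of the same promoters, 0.682% held GAGGAA 3 or more times and 9.92% held GGGCGG 3 or more times. These matches describe the letters in the windows and were not tested against the expression of the genes.

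Expression is given as CPM, the count scaled to the size of its library, after TMM normalization over the 12 libraries. Library totals lay between 20451312 and 28038612 counts, and no member had fewer than 902 counts in any library. In each group 1 library had a lower slope of expression on transcript length than the others, namely vehicle replicate 4 (-0.0456 log2 units per doubling of exon length), 10 µM replicate 1 (-0.0480) and 50 µM replicate 3 (-0.0562), where the other 9 lay between -0.0125 and 0.0427. *Itga4*, *Itgav* and *Itgal*, the members with the longest exon sequence (13978, 10744 and 6569 bases), and *Itgam* had their lowest value of each group in these libraries. *Itgb7*, the member with the shortest exon sequence (2770 bases), had its highest vehicle value in replicate 4. *Itgb1* and *Itgb5* had their highest 10 µM value in replicate 1. For *Itga4*, *Itgav*, *Itgal*, *Itgam*, *Itgax* and *Itgb7*, values are therefore also given without these 3 libraries. Of the cell type markers, the 8 neutrophil genes summed to 11487 ± 1717 CPM (SD, n = 4) with vehicle, 10339 ± 599.7 (SD, n = 4) at 10 µM and 8372 ± 850.1 (SD, n = 4) at 50 µM. The 6 monocyte genes summed to 3843 ± 374 CPM, 5266 ± 449.9 and 3351 ± 359 (SD, n = 4 each), and the 7 macrophage genes to 851 ± 65.6, 1090.4 ± 46.5 and 981 ± 15.9 (SD, n = 4 each). Of the monocyte genes only *Fn1* passed at 10 µM against vehicle, and it made up most of the higher sum there. The 6 dendritic cell genes summed to 94.7 ± 6.44 CPM, 98.9 ± 4.80 and 128 ± 13.2, and the 4 B cell genes to 14.8 ± 3.39, 18.4 ± 2.84 and 34.0 ± 6.38 (SD, n = 4 each). At 50 µM against vehicle, 5 of 8 neutrophil and 4 of 6 monocyte genes fell, where 6.5% of all genes were called lower, and 3 of 6 dendritic cell and 4 of 4 B cell genes rose, where 7% were called higher. Of the 7 macrophage genes 2 rose, 1 fell and 4 did not pass there. The megakaryocyte or platelet genes summed to between 175 and 201 CPM with vehicle and between 204 and 231 at 50 µM, where 1 of 3 tested (*Pf4*) rose. Mast cell or basophil genes summed to between 123 and 185 CPM over the 12 libraries (0 of 4 called) and eosinophil genes to between 795 and 1249.5 (1 of 4 higher at 50 µM). Markers of T or NK cells, of the erythroid lineage and of stromal cells summed to at most 5.63 CPM in any library. In bulk RNA, fewer cells of a type and less RNA per cell cannot be told apart.

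Levels of different genes were compared per kilobase of exon sequence. *Itgb2* had the highest level, 453 ± 11.5 CPM per kb with vehicle (SD, n = 4). It was followed by *Itgax* (129 ± 5.71), *Itgb1* (110.1 ± 3.55), *Itgam* (89.9 ± 4.08) and *Itgal* (49.2 ± 2.61, all SD, n = 4). *Itga5* (22.8 ± 1.77), *Itgb7* (20.4 ± 3.33) and *Itgb5* (19.0 ± 0.400) had overlapping libraries between neighbours in this order, and the levels of all other neighbours did not overlap. *Itga4* (7.37 ± 0.581) and *Itgav* (5.49 ± 0.263, all SD, n = 4) had the lowest levels. The order was the same with the length of the longest transcript in place of all exon sequence. At 50 µM, *Itgam* (110.4 ± 5.08 CPM per kb) stood above *Itgb1* (109 ± 3.60), *Itgb5* above *Itgb7* and *Itgav* above *Itga4*, each pair in the opposite order of means with vehicle. The 50 µM libraries of all 3 pairs overlapped. The exons of *Itgam* share 3450 of 5024 bases with *Gm49368* on the same strand, which had 159 counts over the 12 libraries. Where reads over shared bases were left uncounted, the level of *Itgam* is understated, and over its 1574 unshared bases it came to 287 CPM per kb with vehicle, second to *Itgb2*. *Itga4* shares 1124 exon bases with *Cerkl* on the opposite strand, which had 200 counts over the 12 libraries, and whether reads were counted by strand is not given in the sources used here.

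**Figure D1:**
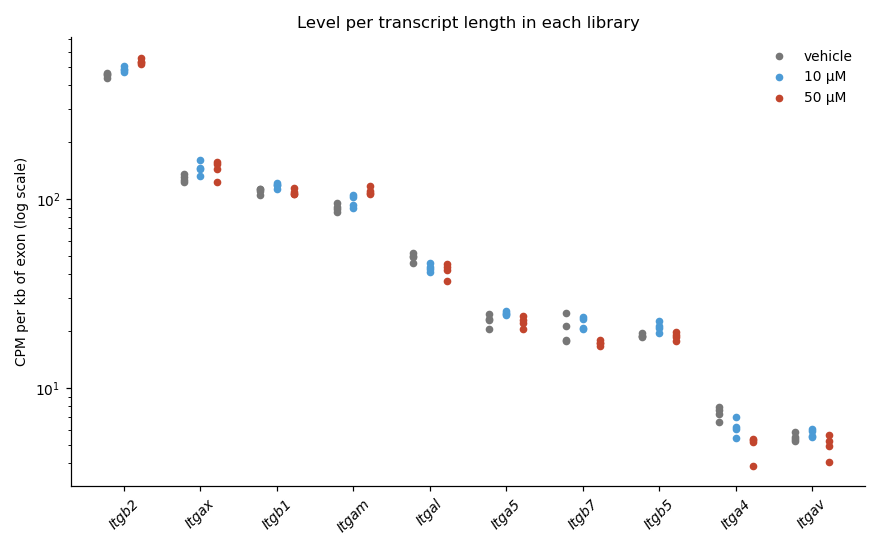
Level of each integrin gene per kilobase of exon sequence (CPM per kb, log scale) in each of the 12 libraries, with vehicle, 10 µM and 50 µM IPA in grey, blue and red and genes in the order of the vehicle mean. *Itgb2* lay above all other members in every library, and *Itga4* and *Itgav* lay lowest.

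At 10 µM IPA, none of the 10 integrin genes passed the threshold against vehicle. By edgeR's test the adjusted p lay between 0.349 and 0.863, and DESeq2 and limma-voom also called 0 of 10. Over all genes tested, 0.41% were called in this comparison. The unadjusted p of edgeR's test was under 0.05 for 4 members (*Itgal*, *Itga4*, *Itgax* and *Itgb5*), where 8.78% of all genes had such a value. The log2 fold change was positive for 8 of the 10, with a median of 0.11, beside a median of -0.01 over all genes. The 95% intervals of the 10 members reached from -0.44 (*Itga4*) to 0.35 (*Itgb7*). The 10 µM libraries lay above all vehicle libraries for *Itgb2* only. The groups did not overlap for 6.13% of all genes, and for 3.57% the 10 µM group was the higher.

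At 50 µM IPA, 3 of the 10 passed the threshold against vehicle, *Itgam* and *Itgb2* higher and *Itga4* lower, where 13.5% of all genes tested were called, 7% higher and 6.5% lower. *Itgam* stood 1.24-fold and *Itgb2* 1.19-fold above vehicle, and *Itga4* at 0.675 of its vehicle level. The groups did not overlap for 4 members, higher for *Itgam* and *Itgb2* and lower for *Itga4* and *Itgal*, beside 20% of all genes (9.45% higher and 10.5% lower). The median log2 fold change of the 10 was -0.02, and that of all genes was 0.01. Between 50 µM and 10 µM, 2 members passed, *Itga4* and *Itgb7*, both lower at 50 µM, where 15.4% of all genes were called and 7.85% were called lower. Here the groups did not overlap for 5 members, *Itgam* and *Itgb2* higher and *Itga4*, *Itga5* and *Itgb7* lower, beside 20.3% of all genes (9.43% higher and 10.9% lower). The log2 fold change from 10 to 50 µM was negative for the 8 members other than *Itgam* and *Itgb2*, with a median of -0.13 over the 10. The comparisons share libraries, so that a low or high group moves both comparisons in which it stands. The paper describes the higher IPA dose as supraphysiological and reports that it slightly reduced cell viability. For that reason its own RNA-seq analysis was focused on the lower dose. The part of viability in the 50 µM results, for the members and for the gene lists below, was not tested.

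**Figure D2:**
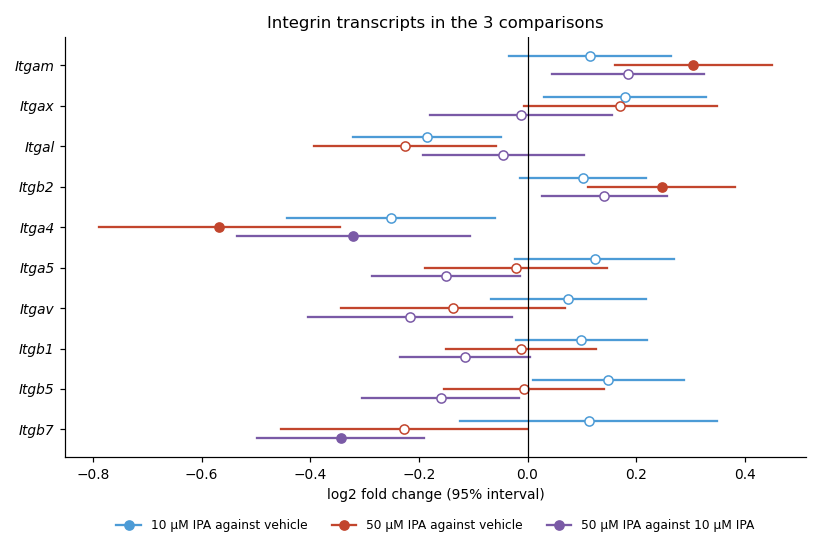
Log2 fold change of each integrin gene with its 95% interval (horizontal axis) in the 3 comparisons, 10 µM against vehicle (blue), 50 µM against vehicle (red) and 50 µM against 10 µM (purple), from edgeR's test, with filled points for an adjusted p under 0.05. Filled points stand at *Itgam*, *Itgb2* and *Itga4* for 50 µM against vehicle and at *Itga4* and *Itgb7* for 50 µM against 10 µM.

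*Itgam* (ENSMUSG00000030786, chromosome 7 of GRCm38, 128062640 to 128118491) encodes alpha M, known as CD11b, the chain by which myeloid cells are commonly recognised. With vehicle the 4 libraries had 479, 444, 453 and 430.1 CPM, at 10 µM 448, 467, 527 and 514, and at 50 µM 542, 555, 532 and 590.4. Each 50 µM library lay above each of the other 8, and the 10 µM group overlapped with vehicle. The log2 fold change at 50 µM was 0.31 against vehicle (standard error, SE, 0.07, edgeR adjusted p = 0.00893) and 0.19 against 10 µM (SE 0.07, adjusted p = 0.0694). The first of these passed in all 8 edgeR fits that left out 1 library and under all 9 other settings, and it was 0.30 without the 3 libraries of low length slope (adjusted p = 0.0044). *Itgam* was higher at 50 µM while the summed neutrophil markers ranged from 7243 to 9241 CPM there and from 9936 to 13565 with vehicle, and the monocyte markers from 2886 to 3759 and from 3433 to 4161. The macrophage sum was higher without overlap, from 966 to 1000.1 CPM at 50 µM and from 759.8 to 908 with vehicle, although of its 7 genes 2 rose and 1 fell. The dendritic cell markers were higher too, from 112 to 144 and from 86.0 to 101, with 3 of 6 genes called. The part of these markers in the result, and in the 50 µM results of *Itgb2* and *Itga4*, was not tested.

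*Itgb2* (ENSMUSG00000000290, chromosome 10, 77530252 to 77565708) encodes beta 2, known as CD18, the common partner of alpha L, alpha M and alpha X. Its libraries had 1418, 1334, 1384 and 1392 CPM with vehicle. They had 1490.4, 1533, 1472 and 1437 CPM at 10 µM and 1619.7, 1618, 1582 and 1705 at 50 µM. The 3 groups followed each other without overlap. At 10 µM its log2 fold change was 0.10 (SE 0.05, edgeR adjusted p = 0.641), and it was 0.25 at 50 µM (SE 0.06, adjusted p = 0.0197). From 10 to 50 µM it was 0.14 (SE 0.05, adjusted p = 0.0926). The call at 50 µM was lost in edgeR's test without vehicle replicate 3 (adjusted p = 0.0669), without 50 µM replicate 2 (0.0564) and without 50 µM replicate 4 (0.0701), and it held in the other 5 such fits.

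The other alpha partners of beta 2 did not pass the threshold in any comparison. *Itgax* (ENSMUSG00000030789, chromosome 7, 128129547 to 128150657), the gene of alpha X or CD11c, had 652, 602, 629 and 591 CPM with vehicle, 695, 768, 702 and 635 at 10 µM and 738, 751, 588 and 693 at 50 µM. The 50 µM group held both the lowest value of the 12 and values near the highest. Its log2 fold change at 50 µM was 0.17 (95% interval -0.01 to 0.35, edgeR adjusted p = 0.197), and without 50 µM replicate 3 it was 0.24 (adjusted p = 0.0499). *Itgal* (ENSMUSG00000030830, chromosome 7, 127296260 to 127335138), the gene of alpha L, which LFA-1 uses to bind ICAM-1, had 341, 325, 328 and 299.6 CPM with vehicle. It had 269.6, 278, 302 and 287 CPM at 10 µM and 285, 276, 241 and 298 at 50 µM. All 50 µM libraries lay below all vehicle libraries, by a narrow margin. At 50 µM its log2 fold change was -0.23 (SE 0.08, edgeR adjusted p = 0.0741), with an adjusted p of 0.0216 without vehicle replicate 4 and of 0.0349 by DESeq2. With the 3 libraries of low length slope left out, edgeR's test called both, *Itgax* with a log2 fold change of 0.22 (adjusted p = 0.0272) and *Itgal* with -0.21 (adjusted p = 0.0299).

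*Itga4* (ENSMUSG00000027009, chromosome 2, 79255426 to 79333123) encodes alpha 4, which leukocytes use in VLA-4 and in the pair with beta 7. Its libraries had 107, 111, 102 and 92.2 CPM with vehicle, 76.2, 86.8, 84.3 and 98.8 at 10 µM and 74.9, 72.5, 54.2 and 74.6 at 50 µM. All 50 µM libraries lay below all others, and the 10 µM group overlapped with vehicle. The log2 fold change was -0.25 at 10 µM (SE 0.09, edgeR adjusted p = 0.365), -0.57 at 50 µM (SE 0.10, adjusted p = 0.00279) and -0.32 from 10 to 50 µM (SE 0.10, adjusted p = 0.0427). Leaving out any 1 library kept the call against vehicle (8 of 8 fits), with a log2 fold change of -0.47 without 50 µM replicate 3, the lowest library, and of -0.52 without the 3 libraries of low length slope. The call against 10 µM was lost in 6 of 8 such fits by edgeR, with an adjusted p of 0.0912, 0.0718 and 0.114 without 10 µM replicates 2, 3 and 4 and of 0.0668, 0.0886 and 0.0548 without 50 µM replicates 2, 3 and 4. It held under all 9 other settings, with a log2 fold change of -0.27 without the 3 libraries of low length slope (edgeR adjusted p = 0.0161).

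*Itgb7* (ENSMUSG00000001281, chromosome 15, 102215995 to 102231944) encodes beta 7, the partner of alpha 4 in the gut homing receptor. It had 49.1, 49.7, 58.6 and 68.7 CPM with vehicle, 57.6, 56.8, 64.2 and 65.8 at 10 µM and 47.9, 50.0, 48.2 and 46.0 at 50 µM. The vehicle libraries were spread over the range of both other groups, and the 50 µM libraries lay below all 10 µM libraries. From 10 to 50 µM the log2 fold change was -0.34 (SE 0.07, edgeR adjusted p = 0.00429), which passed in all 8 fits that left out 1 library. Against vehicle it was 0.11 at 10 µM (adjusted p = 0.863) and -0.23 at 50 µM (95% interval -0.45 to -0.00, edgeR adjusted p = 0.176). Without vehicle replicate 4, the highest of its group, these were 0.22 and -0.12, and without vehicle replicates 1 or 2 the value at 10 µM was 0.05. Without the 3 libraries of low length slope the values against vehicle were 0.25 and -0.12 (edgeR adjusted p = 0.263 and 0.368). The monocyte markers summed to between 4683 and 5757 CPM at 10 µM and between 2886 and 3759 at 50 µM. The neutrophil (9600 to 11036 CPM and 7243 to 9241) and macrophage sums (1035 to 1139 and 966 to 1000.1, with 4 of 7 genes lower and 1 higher) were also lower at 50 µM without overlap. The dendritic cell (94.5 to 104 and 112 to 144, with 2 of 6 genes higher and 0 lower) and B cell markers (15.3 to 21.7 and 25.8 to 41.3, with 4 of 4 higher) were higher without overlap. The part of these markers in the difference was not tested.

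**Figure D3:**
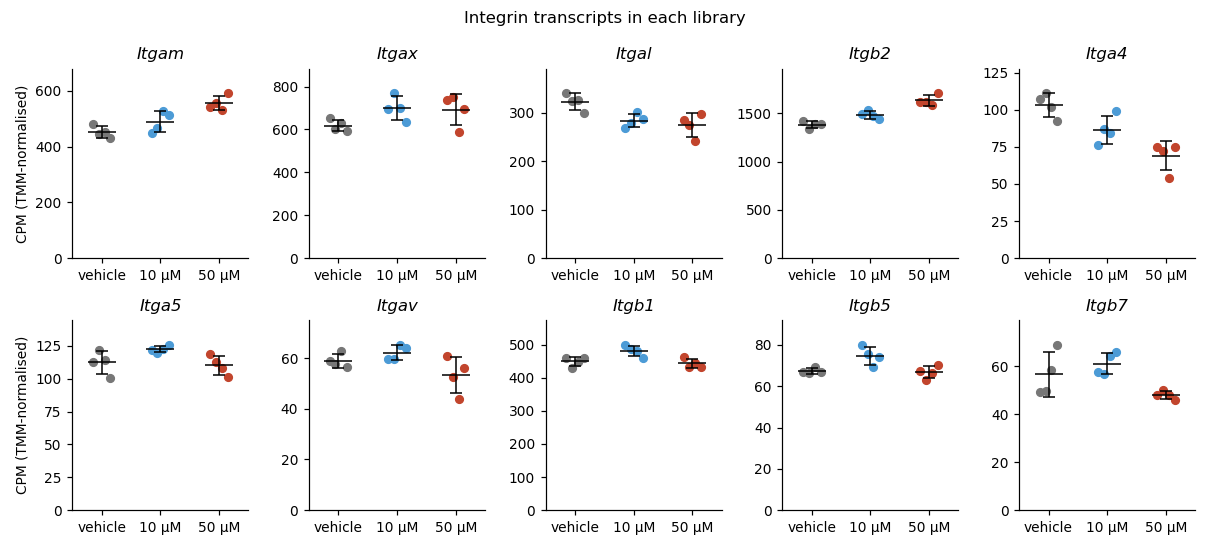
CPM of each integrin gene (vertical axis from 0, TMM-normalized) in each library of the vehicle (grey), 10 µM (blue) and 50 µM IPA (red) groups, with the mean and SD of 4 libraries in black. The 3 groups of *Itgb2* did not overlap, although only 50 µM against vehicle passed the test, the 50 µM libraries of *Itga4* lay below all others, and 50 µM replicate 3 of *Itga4* (54.2 CPM) stood apart from its group.

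The beta 1 chain and the matrix receptors did not pass against vehicle. *Itgb1* (ENSMUSG00000025809, chromosome 8, 128685654 to 128733200), the most widely shared beta chain, had 461, 429.8, 447 and 460.1 CPM with vehicle, 498, 486, 481 and 461 at 10 µM and 464, 434, 443 and 432 at 50 µM. Its log2 fold change at 50 µM was -0.01 with a 95% interval from -0.15 to 0.13. *Itga5* (ENSMUSG00000000555, chromosome 15, 103344286 to 103366763), its partner in the fibronectin receptor, had 113, 122, 114 and 101 CPM with vehicle, 122, 119.7, 123 and 126 at 10 µM and 119, 113, 108 and 101 at 50 µM. The 50 µM libraries lay below all 10 µM libraries, with a log2 fold change of -0.15 (edgeR adjusted p = 0.131). *Itgav* (ENSMUSG00000027087, chromosome 2, 83724397 to 83806916), the alpha chain of the vitronectin receptors, had 58.9, 57.5, 62.9 and 56.5 CPM with vehicle, 59.5, 59.8, 65.1 and 64.0 at 10 µM and 60.7, 52.7, 43.8 and 56.0 at 50 µM. The 50 µM group was the most spread of the 3. From 10 to 50 µM the log2 fold change of *Itgav* was -0.22 (edgeR adjusted p = 0.112), -0.28 without 50 µM replicate 1 (adjusted p = 0.0461), -0.13 without 50 µM replicate 3 (0.255) and -0.15 without the 3 libraries of low length slope (0.197). Against vehicle it was -0.14 at 50 µM, between -0.21 and -0.06 with 1 library left out, and -0.08 without those 3 libraries (edgeR adjusted p = 0.556). *Itgb5* (ENSMUSG00000022817, chromosome 16, 33829665 to 33949338), the partner of alpha V, had 67.1, 66.2, 69.5 and 67.0 CPM with vehicle, 79.9, 75.9, 69.3 and 74.0 at 10 µM and 67.4, 63.1, 66.3 and 70.2 at 50 µM. Of its 10 µM libraries 3 lay above all others, and its log2 fold change was 0.15 at 10 µM (edgeR adjusted p = 0.510) and -0.01 at 50 µM (95% interval -0.15 to 0.14).

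Ratios between members within a library do not depend on how libraries are scaled to each other, but they can depend on the length slope where exon lengths differ. The log2 ratio of *Itgb2* to *Itgb1* counts was 1.62, 1.63, 1.63 and 1.60 with vehicle, 1.58, 1.66, 1.61 and 1.64 at 10 µM and 1.80, 1.90, 1.83 and 1.98 at 50 µM. The 50 µM libraries lay above all others, with a mean 0.26 above vehicle and 0.26 above 10 µM (exact two-sided permutation test over 8 libraries, p = 0.0286 for each, adjusted p = 0.0643 over 9 tests). This p is the smallest that 4 libraries against 4 can give. The log2 ratio of *Itga5* to *Itga4* was 0.08, 0.13, 0.17 and 0.13 with vehicle, 0.68, 0.46, 0.54 and 0.35 at 10 µM and 0.66, 0.63, 1.00 and 0.44 at 50 µM. Vehicle lay below both IPA groups, by 0.38 at 10 µM and by 0.56 at 50 µM (exact permutation test, p = 0.0286 and adjusted p = 0.0643 for each), and the IPA groups overlapped (difference 0.18, between 0.07 and 0.26 with 1 library left out, adjusted p = 0.367 by exact permutation). The highest value of each IPA group was in its library of low length slope (0.68 and 1.00). With 1 library left out, the differences from vehicle lay between 0.32 and 0.43 at 10 µM and between 0.45 and 0.64 at 50 µM. The log2 ratio of *Itgax* to *Itgam*, the neighbouring alpha chains of beta 2, was between 0.44 and 0.47 with vehicle, between 0.30 and 0.72 at 10 µM and between 0.14 and 0.44 at 50 µM. The spread of this ratio was wider in both IPA groups than with vehicle, and the difference of means at 50 µM was -0.14 (exact permutation test, p = 0.0571, adjusted p = 0.103) and lay between -0.18 and -0.08 with 1 library left out. None of the 9 differences passed 0.05 after adjustment, for which at least 6 of the 9 would have had to reach the smallest p.

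**Figure D4:**
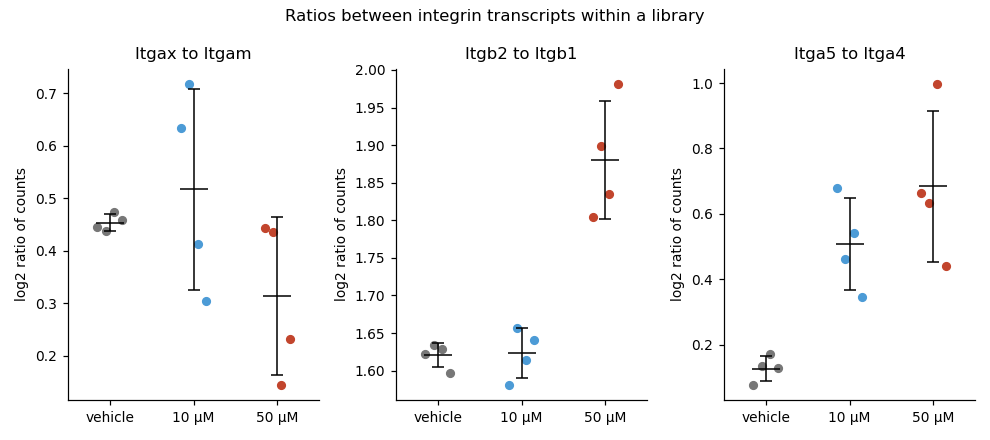
Log2 ratio of counts within each library for *Itgax* to *Itgam*, *Itgb2* to *Itgb1* and *Itga5* to *Itga4* (vertical axes, which do not start at 0) in the vehicle, 10 µM and 50 µM IPA groups, with the mean and SD of 4 libraries in black. The *Itgb2* to *Itgb1* ratio of the 50 µM libraries lay above that of all others, and the *Itga5* to *Itga4* ratio of the vehicle libraries lay below that of all others.

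Over the 12 libraries, the genes whose log2 CPM followed a member most closely were sought over 8926 genes that averaged 10 CPM or more. For *Itga4* they were *Mcm3ap* (Pearson r = 0.98), *Arhgef6* (0.97) and *Ncapd2* (0.96), and for *Itgb7* they were *Polr2d* (0.95), *Slc16a3* (0.93) and *St6gal1* (0.93). For *Itgam* they were *Col5a1* (0.95), *Cars* (0.93) and *Clip2* (0.93), and for *Itgb2* they were *Acsl4* (0.97), *Slc48a1* (0.96) and *Got1* (0.96). These are descriptions over 12 libraries that share 3 conditions, and no p is given for them.

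Of 17 further integrin subunit genes, 11 were tested, 0 passed at 10 µM and 2 passed at 50 µM against vehicle, where 0.41% and 13.5% of all genes were called. *Itgae*, the alpha chain that pairs with beta 7 on mucosal lymphocytes and some dendritic cells, rose from 4.06 ± 0.347 CPM with vehicle to 7.04 ± 1.65 at 50 µM (SD, n = 4 each). Its log2 fold change was 0.80 (SE 0.18, edgeR adjusted p = 0.00984). The dendritic cell markers (86.0 to 101 CPM with vehicle and 112 to 144 at 50 µM) were also higher there without overlap, with 3 of 6 called. So were the B cell markers (10.7 to 18.4 and 25.8 to 41.3, 4 of 4 called). The part of both sets in this difference was not tested. *Itgb2l*, a neutrophil-expressed paralog of *Itgb2*, fell from 192 ± 11.2 CPM to 144 ± 14.5 (SD, n = 4 each), a log2 fold change of -0.40 (SE 0.08, edgeR adjusted p = 0.00672), where *Itgb2* itself rose. The neutrophil markers were lower there too (9936 to 13565 CPM with vehicle and 7243 to 9241 at 50 µM, 5 of 8 called lower), and their part in the *Itgb2l* difference was not tested. Reads of the 2 paralogs may be split between them where their sequences match, and this was not tested. Between 50 and 10 µM, *Itga2*, a collagen receptor chain, and *Itgae* passed, both higher at 50 µM (2 of 11, beside 7.52% of all genes called higher), by 0.88 and 0.60 on the log2 scale (edgeR adjusted p = 0.0134 and 0.0443). *Itga2* did not pass without 50 µM replicate 4 (adjusted p = 0.0567). *Itgae* did not pass without 10 µM replicates 2 (0.130) and 3 (0.0948) or 50 µM replicates 1 (0.127) and 2 (0.127), nor by limma-voom (adjusted p = 0.0594). *Itga1*, another collagen receptor chain and the most abundant of the list by CPM, had 221 ± 19.2 CPM with vehicle, 230.1 ± 11.5 at 10 µM and 205 ± 15.1 at 50 µM (SD, n = 4 each).

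Genes that switch integrins on or link them to the cytoskeleton were read from lists. Of 18 tested activators and adaptors, 1 rose at 10 µM, and 2 rose, 2 fell and 14 did not pass at 50 µM against vehicle (median log2 fold change -0.06). Over all genes 0.41% were called at 10 µM, and 7% were called higher and 6.5% lower at 50 µM. Of the cell type markers, 3 of 7 macrophage genes rose and 0 fell at 10 µM. Against vehicle, 5 of 8 neutrophil and 4 of 6 monocyte genes fell at 50 µM, while 4 of 4 B cell genes rose. The part of the markers in the changes below was not tested. *Fblim1*, whose protein migfilin binds filamin and can displace it from beta tails, rose by 0.68 on the log2 scale at 10 µM (edgeR adjusted p = 0.0102) and by 0.90 at 50 µM (adjusted p = 9.24e-05). Its 10 µM call was lost without 10 µM replicate 2 (adjusted p = 0.0618) or 3 (0.0508). *Dok1*, an adaptor that can block talin binding, rose by 0.51 at 50 µM (adjusted p = 0.00328), and *Tln2*, a talin that activates beta chains, had a log2 fold change of -0.85 (edgeR adjusted p = 0.0207). The *Tln2* call was lost in 5 of 8 fits, without vehicle replicate 1 (0.0556) or 3 (0.0547) and without 50 µM replicate 2 (0.0664), 3 (0.0695) or 4 (0.0611). From 10 to 50 µM, 1 of the 18 rose (*Dok1*) and 3 fell (7.52% and 7.85% of all genes), the latter including *Tln2* (-0.69, edgeR adjusted p = 0.00386) and *Skap2* (-0.24, adjusted p = 0.0194). *Skap2*, an adaptor of the pathway from receptors to integrins in myeloid cells, did not pass without 10 µM replicate 2 (0.0592) or 50 µM replicate 4 (0.0699).

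Of 24 tested adhesion complex genes, 0 passed at 10 µM, and 1 rose and 7 fell at 50 µM against vehicle (median log2 fold change -0.13), beside 7% of all genes called higher and 6.5% called lower. In the same comparison 5 of 8 neutrophil and 4 of 6 monocyte markers fell, and their part in these counts was not tested. *Tns1*, a tensin that binds beta tails and actin, fell from 31.9 ± 6.39 CPM to 8.70 ± 2.53 (SD, n = 4 each), a log2 fold change of -1.87 (edgeR adjusted p = 3.73e-05). *Tns3* fell by 0.66 on the log2 scale (adjusted p = 0.000831), and *Ptk2*, the gene of focal adhesion kinase, rose by 1.22 (edgeR adjusted p = 0.000223) from 5.31 ± 0.717 CPM to 12.3 ± 2.24 (SD, n = 4 each). From 10 to 50 µM, 2 rose and 6 fell, beside 7.52% and 7.85% of all genes. All 3 of these genes passed there too, in the same direction.

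Of 13 tested ligands, *Fn1* and *Spp1* rose at 10 µM, and 1 rose and 3 fell at 50 µM against vehicle (median log2 fold change -0.11). Of all genes 0.41% were called at 10 µM, and 7% higher and 6.5% lower at 50 µM. *Fn1*, fibronectin, rose from 1450.2 ± 131 CPM to 2552 ± 381 at 10 µM (SD, n = 4 each), a log2 fold change of 0.82 (edgeR adjusted p = 0.0102), and fell by 0.59 on the log2 scale from 10 to 50 µM (adjusted p = 0.00195). It is also a member of the monocyte list. The 10 µM call was lost without vehicle replicate 1 (0.0652) and without 10 µM replicate 2 (0.0618). *Spp1*, osteopontin, a ligand of alpha V and alpha 4 integrins, rose by 0.91 at 10 µM (edgeR adjusted p = 0.0311) and by 0.63 at 50 µM (adjusted p = 0.0173). The first call was lost in 5 of 8 fits, without vehicle replicate 1 (0.128) or any of the 10 µM replicates (0.0958, 0.143, 0.107 and 0.0536), and the second without vehicle replicate 1 (0.0569) and 50 µM replicate 3 (0.0650). *F11r*, the junctional molecule JAM-A that LFA-1 binds, fell by 1.25 at 50 µM (edgeR adjusted p = 3.32e-05), from 31.3 ± 4.50 CPM to 13.1 ± 1.62 (SD, n = 4 each). *Emilin1* had a log2 fold change of -0.33 (edgeR adjusted p = 0.0318), lost without vehicle replicate 1 (0.0711), 2 (0.0534) or 3 (0.0788) and without 50 µM replicate 2 (0.0629) or 4 (0.0723). From 10 to 50 µM 0 ligands rose and 4 fell (7.52% and 7.85% of all genes), among them *Mfge8*, a bridging ligand of alpha V pairs (-0.46, edgeR adjusted p = 0.00126). At 10 µM against vehicle *Mfge8* had a log2 fold change of 0.51 that did not pass (edgeR adjusted p = 0.0908) but was called under 4 of 9 other settings, among them DESeq2 (adjusted p = 0.00238), and without vehicle replicate 4 (0.0399).

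Of 11 tested surface partners, 0 passed at 10 µM and 2 passed at 50 µM against vehicle, where 13.5% of all genes were called. *Slc3a2*, the heavy chain CD98 that associates with beta 1, rose by 0.31 on the log2 scale (edgeR adjusted p = 0.00670), and *Sdc4*, a syndecan that acts with alpha 5 beta 1 on fibronectin, fell by 1.43 (adjusted p = 5.67e-05). *Sdc4* went from 54.7 ± 12.5 CPM with vehicle and 64.1 ± 5.02 at 10 µM to 20.2 ± 2.45 at 50 µM (SD, n = 4 each). Both also passed from 10 to 50 µM, where 2 of the 11 rose and 3 fell (7.52% and 7.85% of all genes), *Bsg* among the latter (-0.41, edgeR adjusted p = 0.00029). Cell type markers moved too. At 50 µM against vehicle, 5 of 8 neutrophil and 4 of 6 monocyte genes fell, while 4 of 4 B cell genes rose. Their part in the results of this list was not tested. *Cd47*, which binds beta 3 integrins and is the most abundant of the list by CPM with vehicle, had 495 ± 24.5 CPM there and 440.1 ± 19.9 at 50 µM (SD, n = 4 each, edgeR adjusted p = 0.137).

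**Figure D5:**
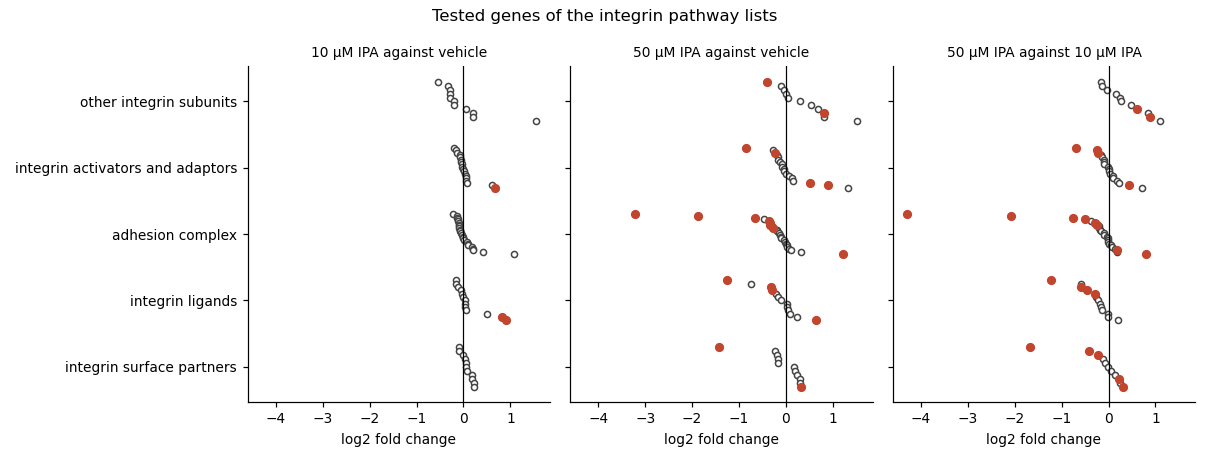
Log2 fold change (horizontal axis) of each tested gene of 5 lists, other integrin subunits, activators and adaptors, adhesion complex, ligands and surface partners, in the 3 comparisons, with red filled points for an adjusted p under 0.05 by edgeR's test and open points for the rest. Of the tested adhesion complex genes, 7 fell and 1 rose at 50 µM against vehicle (6.5% and 7% of all genes).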

How the data were processed

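Bone marrow cells cultured with vehicle, 10 µM or 50 µM IPA were measured by RNA-seq in 12 libraries, 4 per group, grouped by the labels. After trimming with Atropos and alignment to mm10 by HISAT2 2.2.1, the authors deposited raw counts per Ensembl gene from featureCounts 2.0.1, without normalization or filter. The strand setting is not given in the sources used here. The title of 1 library repeats that of another, and its library name was used. Totals were 20451312 to 28038612 counts.

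Genes over 0.5 CPM in at least 2 of 12 libraries (14894) were tested with edgeR 4.0.16 in R 4.3.3 (TMM, glmQLFit, glmQLFTest, Benjamini-Hochberg adjustment over all genes, threshold 0.05), on the 8 libraries of each comparison. Ratios of counts were tested by exact two-sided permutation in scipy 1.17.1. Tested on simulated data in which 200 of 14894 genes, drawn from the more abundant ones, changed by 1 on the log2 scale, edgeR recovered 197 for 10 µM against vehicle, 199 for 50 µM against vehicle and 197 for 50 µM against 10 µM, and called 10, 14 and 13 unchanged genes. The members changed by less, with a median absolute log2 fold change of 0.12 at 10 µM against vehicle. The check does not measure the power to find changes of that size. GENCODE M21 (GRCm38) gave lengths and positions. Promoter sequences are from RefSeq.

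Alternatives were DESeq2 1.42.0, limma-voom (limma 3.58.1), size factors of DESeq2 used in edgeR, testing without a filter or with a minimum of 10 counts per library, all 12 libraries in the fit, a replicate block, an offset for transcript length, leaving out each library, and, chosen after seeing the data, leaving out the library of lowest length slope in each group. Named genes were all 10 members, for 4 members the 3 genes most correlated with each, and for each list at most 3 genes with the smallest adjusted p per comparison, or its most abundant gene. The members and lists were chosen with earlier results of these data known, the lists from general knowledge.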

Additional observations from a re-analysis of the deposited data

Results flagged for a closer look

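*Itga4* in 50 µM replicate 3 (54.2 CPM) lay apart from the other 3 libraries of its group (72.5 to 74.9 CPM), with a gap that took up 0.884 of the group's range. It was the only such value among 39 sets of 4 libraries (members, ratios and groups), of which chance gives about 1 in 20. The same library had the lowest length slope of the 12 (-0.0562). Without it, the log2 fold change of *Itga4* was -0.47 against vehicle (edgeR adjusted p = 0.00342) and -0.22 against 10 µM (adjusted p = 0.0886).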

How the results depend on the processing

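Of 510 values of single members under the alternatives, 482 kept their direction and their side of the threshold, 9 were no longer called, 11 became called and 8 changed sign. The number of members called at 10 µM stayed at 0 in all alternatives. At 50 µM against vehicle it was 3, between 2 and 4 with 1 library left out, 4 with DESeq2 or all 12 libraries in the fit and 5 with the libraries of lowest length slope left out, where *Itgax* and *Itgal* were added. At 50 µM against 10 µM it was 2, between 1 and 3 with 1 library left out, 4 with DESeq2 (*Itgam* and *Itgb2* added) and 4 with the offset for length (*Itgam* and *Itgav* added). The cause was not tested. Over all genes, 61 were called at 10 µM, and 250 by DESeq2, 150 without a filter, 118 with all 12 libraries in the fit, 98 with the offset, 147 without the libraries of low slope and between 4 (without 10 µM replicate 2) and 122 (without vehicle replicate 4) with 1 library left out, each of the 8 moving the number by over 1.5 times. At 50 µM against vehicle 2010 were called, and between 1247 (without vehicle replicate 3) and 2689 with 1 library left out. Without 50 µM replicate 2 the number was 1313. The ratio differences were recomputed as values with no test, and 2 of 9 changed sign, both at 10 µM against vehicle. With 1 library left out, *Itgax* to *Itgam* lay between -0.0034 and 0.13 and *Itgb2* to *Itgb1* between -0.0085 and 0.017, and from counts summed over the group the latter was -0.00063.

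The correlations of deviations showed no pairing by replicate number: of 12 same-numbered pairs, 3 had a correlation over 0.1 (range -0.622 to 0.337), and other pairs ranged from -0.592 to 0.618. The highest, 0.618, was between vehicle replicate 4 and 10 µM replicate 1, both of low length slope. The part of the slope in these correlations was not tested, and the check cannot exclude a pairing. With the replicate block, 0, 3 and 2 members were called in the 3 comparisons, and 3, 1830 and 2200 genes in all. The 10 µM calls of *Fblim1* (edgeR adjusted p = 0.117), *Fn1* (0.0746) and *Spp1* (0.218) and the call of *Itgae* from 10 to 50 µM (0.0574) were lost with it.

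Signs changed for 8 values of members and 11 of list genes, none of which had passed the threshold. *Itgax* from 10 to 50 µM was 0.058 on the log2 scale without the libraries of low slope. Leaving out 1 library gave between -0.057 and 0.060 for it, and between -0.085 and 0.015 for *Itgal* there. At 50 µM against vehicle the range was -0.070 to 0.017 for *Itga5*, -0.032 to 0.011 for *Itgb5* and -0.050 to 0.12 for *Mfge8*. It was -0.13 to 0.067 for *F11r*, -0.052 to 0.036 for *Slc3a2* and -0.36 to 0.019 for *Tln2* at 10 µM, and -0.028 to 0.0033 for *Vasp* from 10 to 50 µM. The fewest counts of any member in a library were 902, and the effect of depth on the calls was not tested.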
